A study of Homo sapiens with 4 samples.

Results

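The butyrophilin genes of the short arm of chromosome 6 were described in HCT116 cells with and without FOXD2. The 6 members, BTN1A1, BTN2A1, BTN2A2, BTN3A1, BTN3A2 and BTN3A3, were taken by symbol from the 60683 genes of the tables. They were chosen by earlier results on the same FOXD2 against empty vector libraries, so their own fold changes are given as a description with no test. HCT116 is an established human colorectal carcinoma line. All cells had been transduced with a pSin lentivirus and kept in 5 μg/mL puromycin. The virus was the empty vector in the control libraries and carried the full-length FOXD2 coding sequence, for a forkhead transcription factor, in the others. No source used here names the promoter of the vector or says whether the cells were a pool or a clone. PolyA RNA of 2 libraries per group was sequenced; no source used here says whether the pair came from separate cultures or transductions, so the spread between them may be technical.

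Butyrophilins are membrane proteins of the immunoglobulin superfamily, related to the B7 costimulatory molecules. BTN3A1 and BTN2A1 act together at the surface of tumour and infected cells. BTN3A1 binds phosphoantigens, small intermediates of isoprenoid synthesis, through its intracellular B30.2 domain, and BTN2A1 binds the T cell receptor of human Vγ9Vδ2 T cells. BTN3A2 and BTN3A3 are close relatives of BTN3A1 and modulate this response, BTN2A2 is a coinhibitory molecule of T cells, and BTN1A1 is best known from the milk fat globule of the lactating mammary gland.

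Library totals ran from 14231338 to 15535817 counts. FOXD2 itself had 49 and 42 counts in the controls against 8195 and 7011 in the FOXD2 libraries. Chi-square divided by its degrees of freedom was 2.62 between the control replicates (14029 genes) and 4.13 between the FOXD2 replicates (14443 genes). Genes with few counts in the pair were left out. Neither pair thus agreed within counting error. FOXD2 replicate 1 stood apart in RNAs made without a polyA tail: RN7SL1, RN7SL2 and RN7SK summed to 113.3 CPM there, against 53.7 CPM in FOXD2 replicate 2 and 26.8 to 28.7 CPM in the control libraries. CPM is the count scaled to a common library size with TMM factors. Of 8 colon epithelial markers 7 were tested, with 5 higher and 1 lower with FOXD2 (median log2 fold change 0.85). EPCAM was at 350.1 CPM and KRT8 at 2235 CPM in control cells. KRT8, KRT18, KRT19 and CDH1 were higher by 0.85, 0.87, 1.04 and 1.09, CDX2 had a value of -0.51, and VIL1 had 6 counts or fewer in each library. KRT20 had the lowest value of the tested markers, -0.97 (SE 0.43, edgeR adjusted p = 0.053), and was not called. It had 15 and 27 counts in the controls against 12 and 10 with FOXD2. The part of these markers in the results below was not tested. Of 11 γδ T cell markers 9 had no count in any library and the list summed to at most 3 counts per library.

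The members lie on the plus strand within 145.3 kb of GRCh38 (GENCODE release 29), in the order BTN3A2 (chromosome 6, 26365159 to 26378320), BTN2A2 (26383096 to 26394874), BTN3A1 (26402237 to 26415216), the transcribed pseudogene BTN2A3P (26421391 to 26432383), BTN3A3 (26440472 to 26453415), BTN2A1 (26457904 to 26476621) and BTN1A1 (26501221 to 26510422). The longest annotated coding sequence of BTN3A2 has 334 codons, against 513 for BTN3A1 and 584 for BTN3A3, and BTN3A2 is known to lack the B30.2 domain. BTN2A1, BTN2A2 and BTN1A1 have 527, 523 and 526 codons. The tables list the members as ENSG00000186470 (BTN3A2), ENSG00000124508 (BTN2A2), ENSG00000026950 (BTN3A1), ENSG00000111801 (BTN3A3), ENSG00000112763 (BTN2A1) and ENSG00000124557 (BTN1A1). Because the genes arose by duplication, reads can fit more than 1 of them. Of the 100-base words in annotated transcripts, 2.76% of those of BTN3A1, 4.82% of BTN3A2 and 5.60% of BTN3A3 also occur in another gene of the cluster, against 0.662% for BTN2A1, 0.355% for BTN2A2 and none for BTN1A1. RSEM, which estimated the counts, gave a posterior standard deviation of at most 0.890 reads for any of these genes in any library, a value for the assignment of reads alone.

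The promoters of BTN3A2, BTN3A3 and BTN2A1 are shown because BTN3A2 and BTN2A1 have the largest fold changes among the members that passed the filter on low counts, in opposite directions, and BTN3A3 has a near copy of the BTN3A2 promoter. The stretches are from RefSeq (GRCh38.p14, plus strand), 5′ to 3′, and begin 250 bases before the RefSeq start. They were shortened to end before the first base of any transcript in GENCODE release 29. Capitals mark the forkhead core TAAACA, the CCAAT box (CCAAT, or ATTGG on the other strand) and an 11-base word shared by all 3. They lie at chr6:26364948-26365158 (BTN3A2), chr6:26440254-26440471 (BTN3A3) and chr6:26457705-26457903 (BTN2A1).
BTN3A2: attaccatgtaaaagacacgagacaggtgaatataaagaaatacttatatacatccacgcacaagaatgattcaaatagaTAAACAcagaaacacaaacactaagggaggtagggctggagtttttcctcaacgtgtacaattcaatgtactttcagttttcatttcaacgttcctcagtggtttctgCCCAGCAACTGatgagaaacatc
BTN3A3: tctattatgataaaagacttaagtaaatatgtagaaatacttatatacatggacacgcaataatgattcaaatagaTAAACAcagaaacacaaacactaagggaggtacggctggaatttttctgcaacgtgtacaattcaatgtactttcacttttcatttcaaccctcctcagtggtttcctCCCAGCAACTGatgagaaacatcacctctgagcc
BTN2A1: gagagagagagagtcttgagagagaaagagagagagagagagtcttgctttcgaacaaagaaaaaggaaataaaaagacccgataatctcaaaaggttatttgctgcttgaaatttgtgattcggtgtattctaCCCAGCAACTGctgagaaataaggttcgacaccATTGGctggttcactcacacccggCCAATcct

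Over the full 250 upstream bases, the BTN3A2 and BTN3A3 windows were 86.3% identical (220 of 255 aligned columns), against 47.6% between BTN3A2 and BTN2A1. The forkhead core (TAAACA, or TGTTTA on the other strand) occurred once in the BTN3A2 window, 170 to 165 bases before the start, and once in that of BTN3A3, 174 to 169 bases before it; 11.0% of all 35116 RefSeq windows of this length hold it. A CCAAT box lay 30 to 26 bases before the start in BTN3A2 and 34 to 30 in BTN3A3, across or past the end of the bases shown and so not marked. BTN2A1 had a CCAAT box 83 to 79 and another 59 to 55 bases before its start, and 32% of all windows hold at least 1. The word CCCAGCAACTG was the longest found in all 3 windows on the same strand and was picked after the sequences were seen. It occurs in 17 of the 35116 windows (0.0484%, both strands), and these include the 3 windows from which the word was taken. Neither the interferon-stimulated response element core (TTTCNNTTTC, or GAAANNGAAA on the other strand; 3.02% of windows) nor the gamma-activated site core (TTCNNNGAA, its own reverse complement; 6.57%) occurred in the windows of BTN3A2, BTN3A3, BTN2A1 or BTN1A1. No listed motif overlapped another in these windows. A second BTN3A2 start in RefSeq, at 26368178, had none of these motifs in its window. BTN3A1 and BTN2A2 had no entry. A match of letters is a description and shows no binding.

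The members' values differed in sign. BTN3A2 was lower and BTN2A1 higher in FOXD2 cells, BTN2A2 had a small negative value that was not called, BTN3A1 and BTN3A3 had values smaller than their errors, and BTN1A1 was hardly detected. In such bulk RNA, fewer cells making a transcript and less of it per cell cannot be told apart. Of the 5 members that passed the filter on low counts, 1 was called higher (BTN2A1) and 1 lower (BTN3A2) by edgeR at an adjusted p under 0.05. Over all 14470 genes tested 53.5% were called, 27.2% higher and 26.4% lower. The CPM of the 2 groups did not overlap for BTN3A2, BTN2A1 and BTN2A2 among those 5, while 76.1% of all tested genes had groups that did not overlap. BTN2A1 was not called without control replicate 1, without FOXD2 replicate 1, with DESeq2 or with limma on log2(TPM + 1), and BTN3A1 and BTN2A2 were called lower without FOXD2 replicate 2. Since the members were chosen on this contrast, nothing is read from these calls and counts. With 2 libraries against 2 an exact permutation test of a single value cannot go below p = 0.33.

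**Figure D1:**
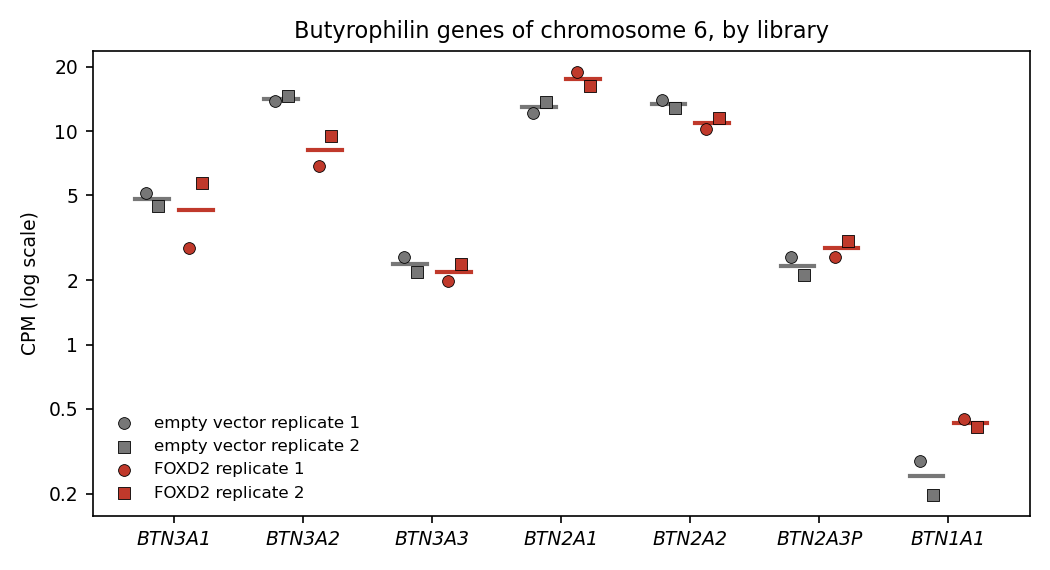
CPM (log scale) of each butyrophilin gene and the pseudogene BTN2A3P in each library; grey is empty vector, red is FOXD2, circles are replicate 1, squares replicate 2 and bars the group means. The red points of BTN3A2 lie below the grey ones and those of BTN2A1 above them, while the 2 FOXD2 libraries are far apart for BTN3A1 (2.83 and 5.74 CPM).

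BTN3A1, the phosphoantigen sensor, had 72 and 67 counts in the controls against 44 and 84 in FOXD2 replicates 1 and 2, which is 5.15 and 4.44 against 2.83 and 5.74 CPM. The FOXD2 libraries thus lay on both sides of the control libraries. The fitted log2 fold change, FOXD2 over empty vector, was -0.17 (SE 0.26). It was 0.25 without FOXD2 replicate 1 and -0.76 without FOXD2 replicate 2, so its direction rested on which FOXD2 library was used. The level in FOXD2 replicate 2 was 2.03 times that in replicate 1, with an exact 95% interval of 1.39 to 2.99 for counting error. Of 4569 tested genes with a mean of 2 to 20 CPM, 14.7% had an interval that left out 1 between these libraries and 1.09% differed at least 2-fold.

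BTN3A2, which carries no B30.2 domain, had 193 and 221 counts in the controls (13.8 and 14.6 CPM) against 107 and 139 with FOXD2 (6.87 and 9.50 CPM). Both FOXD2 libraries were below both controls. The mean went from 14.2 ± 0.591 to 8.19 ± 1.86 CPM (SD, n = 2 each). The log2 fold change was -0.80 (SE 0.15), which is 1.74-fold lower. Here too FOXD2 replicate 1 was the lower library, with replicate 2 at 1.38 times its level (interval 1.07 to 1.79), and the fold change was -0.59 without replicate 1 and -1.05 without replicate 2.

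BTN3A3, with the longest coding sequence of the BTN3A genes, had 36 and 33 counts in the controls against 31 and 35 with FOXD2, 2.57 and 2.19 against 1.99 and 2.39 CPM. These ranges overlapped in part. The log2 fold change was -0.12 (SE 0.31), and the exact 95% interval of the ratio of levels was 0.647 to 1.31. On the scale of log2(TPM + 1) the value was 0.12.

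The 3 BTN3A genes were also summed, since reads divided among them by the estimate add up to the same total. The estimated counts before rounding summed to 301 and 322 in the controls against 182 and 258 with FOXD2, or 21.5 and 21.3 against 11.7 and 17.6 CPM. Both FOXD2 libraries were lower, with a log2 ratio of the means of -0.55, and -0.28 without FOXD2 replicate 1. BTN3A2 made up 64.1% and 68.8% of the rounded counts in the controls against 58.8% and 53.9% with FOXD2, where the exact 95% intervals (58.4 to 69.5%, 63.5 to 73.9%, 51.3 to 66.0% and 47.6 to 60.1%) overlapped in part. The library with more RNA of the RN7SL and RN7SK kind, FOXD2 replicate 1, was the one with less BTN3A RNA; the part of that difference in the result was not tested.

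BTN2A1, the ligand of the Vγ9 chain, had 170 and 207 counts in the controls (12.2 and 13.7 CPM) against 295 and 237 with FOXD2 (19.0 and 16.2 CPM). Both FOXD2 libraries were above both controls. The mean went from 12.9 ± 1.10 to 17.6 ± 1.95 CPM, a log2 fold change of 0.44 (SE 0.13), or 1.36-fold. The value was 0.31 without FOXD2 replicate 1 and 0.55 without FOXD2 replicate 2.

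BTN2A2, a T cell coinhibitor, had a value of the opposite sign to its paralogue, with 196 and 194 counts in the controls (14.02 and 12.9 CPM) against 160 and 169 with FOXD2 (10.3 and 11.5 CPM). The groups did not overlap, and the log2 fold change was -0.30 (SE 0.14). The pseudogene BTN2A3P had 36 and 32 against 40 and 45 counts (0.27, SE 0.30), with ranges that met at 2.57 CPM. Summed, these 3 genes had 28.8 and 28.7 CPM in the controls and 31.8 and 30.8 CPM in FOXD2 cells, a log2 ratio of 0.12, so that the sum differed less than its parts. The share of BTN2A1 in the sum was 42.3% and 47.8% in the controls and 59.6% and 52.5% in FOXD2 cells, and that of BTN2A2 was 48.8% and 44.8% against 32.3% and 37.5%.

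BTN1A1, the milk fat globule member, had 4 and 3 counts in the controls against 7 and 6 in the FOXD2 libraries, and did not pass the filter on low counts. The ratio of FOXD2 to empty vector was 1.79 with an exact 95% interval of 0.663 to 5.29, so a difference was not detectable at this depth. The level stayed between 0.199 and 0.450 CPM, where 3 counts, the limit that a count of 0 allows, are 0.193 to 0.215 CPM.

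**Figure D2:**
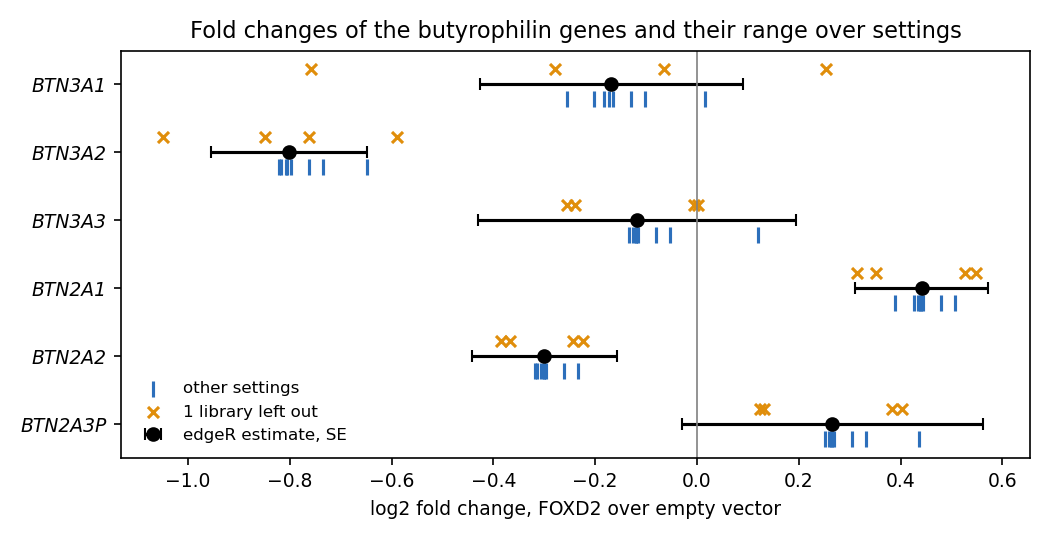
Log2 fold changes (FOXD2 over empty vector) of the 5 members that passed the filter and of BTN2A3P. Black points are edgeR estimates with their SE, blue ticks the other settings and orange crosses the fits with 1 library left out; the crosses of BTN3A1 run from -0.76 to 0.25, while all marks of BTN3A2 are below 0 and all of BTN2A1 above.

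Levels were set against each other per length, in TPM as deposited. In empty vector cells BTN2A2 was highest at 8.38 ± 1.46 TPM, followed by BTN2A1 at 6.22 ± 0.785, BTN3A2 at 6.03 ± 0.750, BTN3A1 at 2.24 ± 0.198, BTN3A3 at 1.01 ± 0.113 and BTN1A1 at 0.115 ± 0.0354 TPM (SD, n = 2 each). BTN2A1 and BTN3A2 did not differ beyond their spread. In FOXD2 cells the order was BTN2A1 at 8.46 ± 1.19, BTN2A2 at 6.51 ± 1.08, BTN3A2 at 3.54 ± 1.12, BTN3A1 at 2.40 ± 1.28, BTN3A3 at 1.21 ± 0.481 and BTN1A1 at 0.205 ± 0.00707 TPM. The ranges of BTN3A2 and BTN3A1 overlapped there (2.75 and 4.34 against 1.49 and 3.30 TPM), as did those of BTN3A1 and BTN3A3 (0.870 and 1.55 TPM), whereas BTN3A2 lay clear of BTN3A1 in control cells. The tables also list an interval for each TPM, made from RSEM's posterior, and for the BTN3A genes it often left out the TPM itself: in control replicate 1 BTN3A3 had 1.09 TPM with an interval of 2.18 to 4.94, BTN3A1 2.38 with 2.42 to 4.61 and BTN3A2 5.50 with 6.54 to 10.6. By these intervals BTN3A3 overlapped BTN3A1, and BTN3A2 overlapped BTN2A1 (4.84 to 7.91), so the order of these genes depends on the estimate used. The change of order between the groups was not tested.

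The tables also give the mean transcript length of each gene, weighted by the estimated abundance of its transcripts, a measure not used to choose the members. That of BTN3A1 was 2953 and 2856 bases in the controls and 2610 and 2469 in FOXD2 cells, so the values in the FOXD2 libraries were shorter without overlap. Among the 12600 tested genes whose length varied between libraries, 39.5% had groups without overlap. BTN3A3 had 3263 and 3147 against 3181 and 2218 bases, the last value being from FOXD2 replicate 2. BTN2A3P had 2121 and 2411 against 1795 and 1770 bases, again without overlap. The lengths of BTN3A2 (2988 to 3415 bases), BTN2A1 (2722 to 2980) and BTN2A2 (2112 to 2498) overlapped between the groups, and that of BTN1A1 was 2895 bases in every library. The tables list 11 transcripts for BTN3A1 and 15 for BTN3A3, and the weights rest on 84 counts or fewer per library for these 2 genes.

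The other genes within 500 kb of the cluster were compared next. There were 63 annotated neighbours, of which 12 were tested. By edgeR 9 of them were called higher and 2 lower with FOXD2, beside 27.2% higher and 26.4% lower of all tested genes. The 5 histone genes among them were all called higher. The histone gene H2BC4 had 0.572 and 0.596 CPM in the controls against 1.41 and 1.30 CPM with FOXD2. H2BC4 and ENSG00000282988 passed the filter on low counts only through the FOXD2 libraries. Their direction was thus largely set by the filter, and nothing is read from their calls. Of the 7 neighbours without a histone symbol 4 were higher, 2 lower and 1 not called (median log2 fold change 0.33). This split was made by symbol alone. ENSG00000282988, which had no symbol, is counted among these 7, although it lies between the histone genes H2BC5 and H3C6. All 9 on the BTN3A2 side had positive values, with 8 called. They included 5 histone genes, among them H1-2 at 2.21 (SE 0.15, adjusted p = 4.5e-19), H2AC6 at 2.52 (SE 0.18) and H2BC5 at 2.26 (SE 0.19), which encode a linker histone and core histones H2A and H2B. These named genes had 27.2, 18.7 and 15.0 CPM in FOXD2 replicate 1, the library with most RN7SL and RN7SK RNA, and 22.3, 15.9 and 12.0 CPM in replicate 2. H3C6 was instead higher in FOXD2 replicate 2 (4.10 against 2.63 CPM). RN7SL and RN7SK RNA was higher in both FOXD2 libraries than in the controls. The part of RNA without a polyA tail in the histone values was not tested. The gene ENSG00000282988, at 0.358 and 0 CPM in the controls and 1.35 and 0.752 CPM with FOXD2, had a fitted value of 2.56 (SE 0.68), which was 1.53 without control replicate 2, 7.004 without control replicate 1, where the lone control is at 0 and the value depends on the prior count, and 1.05 on log2(TPM + 1). It was not called when control replicate 2 was left out (edgeR adjusted p = 0.11), without FOXD2 replicate 1 (0.056) and with DESeq2 (0.059). Nearest to the cluster on that side was H3C6, 141 kb before BTN3A2, at 1.43 (SE 0.33). On the BTN1A1 side HMGN4, a nucleosome-binding protein gene, was at -0.21, ABT1 at -0.20 and the zinc finger gene ZNF322 at 0.33. The calls of HMGN4 and ABT1 depended on the scaling: none was left with library totals alone, where 0 neighbours were lower by edgeR, also at an unadjusted p under 0.05. Likewise 0 were lower without control replicate 2 (1 at an unadjusted p under 0.05) or without FOXD2 replicate 1 (2), and 1 was when either of the other libraries was left out. Between the histone genes and HMGN4 the tested butyrophilin genes thus had values from -0.80 to 0.44.

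**Figure D3:**
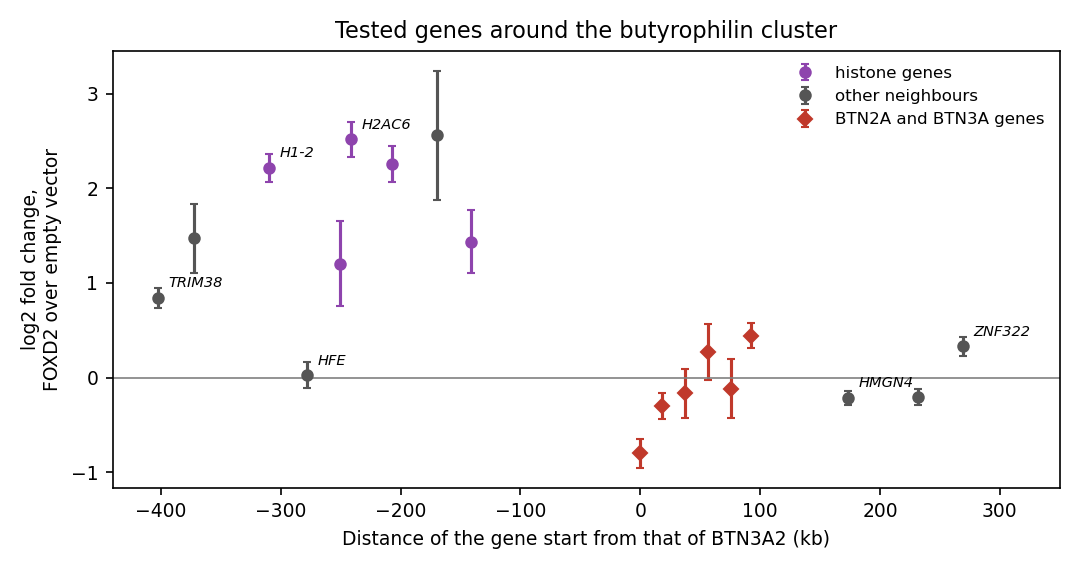
Log2 fold change (FOXD2 over empty vector) with SE of tested genes by the distance of their start from that of BTN3A2, in kb; purple marks histone genes, grey other neighbours and red diamonds the BTN2A and BTN3A genes with the pseudogene. Histone genes before the cluster reach up to 2.52, with H3C6 at 1.43, whereas the butyrophilin genes lie between -0.80 and 0.44.

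Butyrophilin-like and B7 family genes outside the cluster were measured for comparison. Of 18, 7 were tested, with 3 higher and 2 lower (median log2 fold change 0.26, against 0.01 over all tested genes), and 7 had no count in any library. The lists are small, and shares of this kind were read only beside the 27.2% higher and 26.4% lower of all genes. BTNL9, a butyrophilin-like gene of chromosome 5, rose from 4.93 ± 0.413 to 9.97 ± 0.107 CPM (1.02 on the log2 scale, SE 0.18, edgeR adjusted p = 3.5e-06). ERMAP, an erythroid butyrophilin-like gene, rose by 1.10 (SE 0.20, adjusted p = 3.6e-06), the largest value among the tested genes of the list. CD274, which encodes the checkpoint ligand PD-L1, rose from 1.88 ± 0.336 to 3.52 ± 0.247 CPM (0.89, SE 0.29, adjusted p = 0.0089), a call lost without control replicate 1 (0.099), without FOXD2 replicate 2 (0.059) and with DESeq2 (0.11). ICOSLG, the ligand of the costimulator ICOS, fell by 0.81 on the log2 scale (SE 0.18, adjusted p = 0.00015), not called without control replicate 2 (0.066) or with limma on log2(TPM + 1) (0.080). The gut genes BTNL3 and BTNL8, partners in the control of intestinal γδ T cells, had no count in any library.

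Regulators known to act on butyrophilin or MHC promoters, and genes of interferon signalling, were higher in part. Of 18, 16 were tested, and 7 were higher and 2 lower (median 0.13). NLRC5, the transactivator of MHC class I genes, rose from 5.08 ± 0.810 to 16.2 ± 3.56 CPM (1.67, SE 0.17, edgeR adjusted p = 2.0e-11). IRF9 rose by 2.80 (SE 0.14) and STAT2 by 1.47 (SE 0.10). IRF1 had a value of -0.29 (SE 0.14, adjusted p = 0.078) and did not pass. Of 3 genes reported to lower BTN3A expression, ZNF217 fell from 46.9 ± 0.0828 to 20.6 ± 3.38 CPM (-1.19, SE 0.10, adjusted p = 9.3e-15), RUNX1 rose by 0.49 (SE 0.08) and CTBP1 was at 0.04.

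The MHC class I pathway was measured beside them because NLRC5 is a known regulator of both and the HLA genes lie on the same chromosome arm. Of 15 heavy chain and antigen loading genes 13 were tested, with 11 higher and 1 lower (median 0.63). HLA-B rose by 1.02 (SE 0.08) and HLA-C by 0.63 (SE 0.06). The peptide-trimming aminopeptidase genes ERAP1 (1.39, SE 0.14) and ERAP2 (1.16, SE 0.34) had the largest values of the tested genes; the ERAP2 call ended without control replicate 1 (adjusted p = 0.091), with DESeq2 (0.069) and with limma on log2(TPM + 1) (0.53). PSMB10, an immunoproteasome subunit gene, was the lower one at -0.59 (SE 0.14). HLA genes share sequence and vary between people, so the division of reads among them is uncertain. The difference between the members and this list was not tested, as the members were chosen on the contrast.

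**Figure D4:**
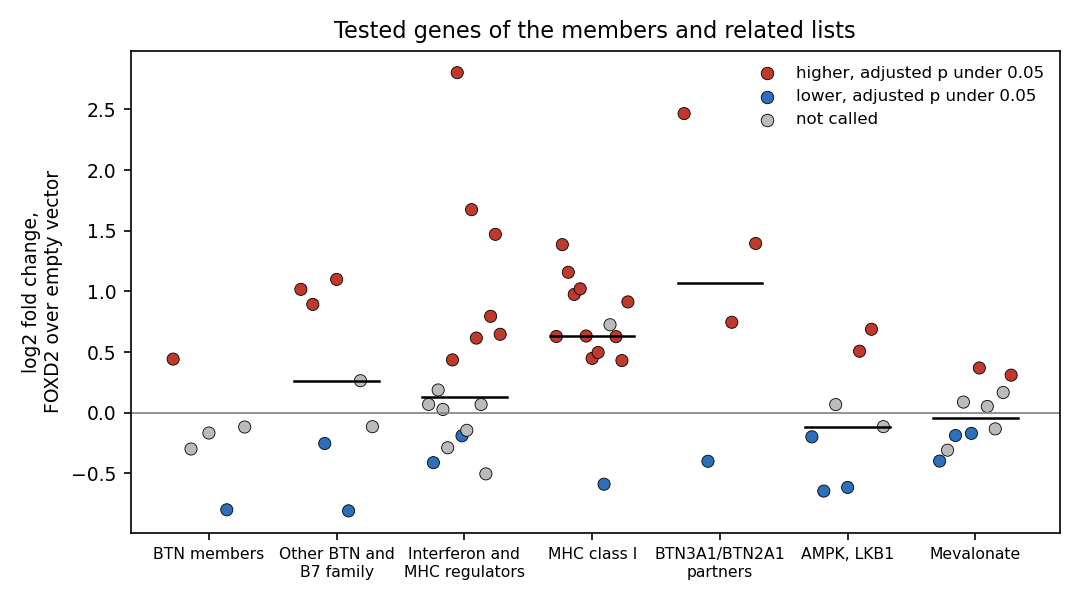
Log2 fold change (FOXD2 over empty vector) of each tested gene in the butyrophilin members and in 6 related lists; red is higher and blue lower at an adjusted p under 0.05, grey is not called, and bars are list medians (none is drawn for the members). Of the MHC class I genes 11 of 13 are red, while the 5 members spread from -0.80 to 0.44.

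Genes that act with BTN3A1 were also looked up. RHOB, a small GTPase that relocates with BTN3A1 in phosphoantigen-rich cells, rose from 103.1 ± 0.822 to 270.9 ± 33.3 CPM (1.39, SE 0.07, edgeR adjusted p = 7.1e-19). PPL, encoding the plakin periplakin that binds the BTN3A1 tail, rose by 0.75 (SE 0.07), ABCA1, a lipid exporter tied to phosphoantigen release, rose by 2.47 (SE 0.30) from 10 and 23 to 99 and 91 counts, and MAP4, a microtubule protein linked to BTN3A1 transport, fell by 0.40 (SE 0.06). ABCA1 was at 3.12 without control replicate 2 and at 0.69 on the log2(TPM + 1) scale.

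Enzymes that make and use phosphoantigens had small values. Of 10 genes of the mevalonate and isoprenoid pathway, all tested, 2 were higher and 3 lower (median -0.04, range -0.40 to 0.37). The first enzymes went opposite ways: ACAT2 fell by 0.40 (SE 0.08, edgeR adjusted p = 6.3e-05) and HMGCS1 rose by 0.37 (SE 0.09, adjusted p = 0.0051), the latter at 0.19 without FOXD2 replicate 2. FDPS, the farnesyl diphosphate synthase whose block raises phosphoantigens, was at -0.19 (SE 0.07, adjusted p = 0.033). It was not called with library totals alone, upper quartile factors, DESeq2, limma on log2(TPM + 1), or without control replicate 1, control replicate 2 or FOXD2 replicate 1 (adjusted p = 0.075 to 0.55 over these). PMVK was at 0.31 (SE 0.14, adjusted p = 0.050, just inside the threshold) and was not called in 8 of 13 alternatives, among them without control replicate 1 (0.062), control replicate 2 (0.36) or FOXD2 replicate 1 (0.19).

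AMPK, an energy sensor reported to raise butyrophilin expression, had subunits moving both ways. Of 7 genes with its activator kinase LKB1 (STK11), 2 were higher and 3 lower (median -0.12). The γ subunits PRKAG2 (0.69, SE 0.09) and PRKAG1 (0.51, SE 0.08) rose, and the β subunit PRKAB2 (-0.62, SE 0.12) fell, though not with limma on log2(TPM + 1) (adjusted p = 0.057). The α subunit PRKAA2 was at -0.65 (SE 0.21, edgeR adjusted p = 0.0072), a call lost without control replicate 1 (0.12), without FOXD2 replicate 1 (0.083), with DESeq2 (0.094) and with limma on log2(TPM + 1) (0.24).

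Of the partners of BTN1A1 in the milk fat globule, XDH, xanthine dehydrogenase, had 2 counts in each control library against 133 and 121 with FOXD2, a ratio of levels of 61.1 (exact 95% interval 23.6 to 226.1). MFGE8 rose by 1.12 (SE 0.08, edgeR adjusted p = 6.2e-18), the lipid droplet protein gene PLIN2 was at -0.31 (SE 0.11, adjusted p = 0.011; 0.16 without control replicate 2 and 0.095 with DESeq2), and CIDEA and 4 milk protein genes had no count. Among blood cell markers CD68, also a lysosomal gene, was the only 1 of 7 tested and rose by 2.98 (SE 0.14), while the other 6 had 5 counts or fewer in each library.

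Profiles of genes over the 4 libraries were set against that of the summed BTN3A genes by Euclidean distance of log2 CPM, centred over the libraries. A small constant was added to the CPM of each gene but not to that of the sum. By this distance the nearest were CACNB2 (0.0303), TIAM2 (0.0528), NOVA2 (0.0592), SHOC1 (0.0639) and the pseudogene RPL6P27 (0.0785). TIAM2, for example, had 7.44 and 7.75 CPM in the controls and 4.05 and 6.22 CPM in FOXD2 cells, with FOXD2 replicate 1 lowest in both this gene and the BTN3A sum. In all, 49 tested genes lay within a distance of 0.2. CACNB2 (0.450 to 0.930 CPM) and SHOC1 (0.899 to 1.79 CPM) were at low levels and were not called by edgeR. The added constant weighs most at such levels, so the places of CACNB2 and SHOC1 in the order depend on it. TIAM2, NOVA2 and RPL6P27 were called lower by edgeR but not by DESeq2 or by limma on log2(TPM + 1). Without FOXD2 replicate 1 the log2 fold change of TIAM2 went from -0.57 to -0.30 and that of NOVA2 from -0.60 to -0.35.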

How the data were processed

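PolyA RNA of 4 libraries (2 empty vector, 2 FOXD2) was measured from libraries made with a strand-specific kit. STAR 2.7.2b, RSEM 1.2.31 and the build GRCh38 are named per the submitters' processing notes; the annotation release and strand setting are not given in the sources used here. Per the file headers, the authors deposited RSEM expected counts, TPM, and for each gene a mean transcript length and a posterior standard deviation of the count. Expected counts were rounded. Of the 60683 identifiers 60370 had a symbol and 58496 a position in GENCODE release 29; every transcript the tables list for the members is in that release.

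The test was the quasi-likelihood test of edgeR 4.0.16 (R 4.3.3, TMM, filterByExpr, robust, intercept and group, two-sided), with Benjamini-Hochberg adjustment over 14470 genes and a threshold of 0.05. All adjusted p-values are from it unless another tool is named. The SE of a log2 fold change is its absolute value divided by the square root of the F statistic of this test. It was not reported by the fit itself. CPM is given as mean ± SD, n = 2 per group. Intervals are exact (Clopper-Pearson, or the conditional binomial for ratios; scipy 1.17.1), at 95%, and hold for counting error alone, since no molecular identifiers are named in the labels. Alternatives were DESeq2 1.42.0, limma 3.58.1 (voom, and log2(TPM + 1) with a pseudocount of 1), other scalings and filters, a replicate block, summed paralogues and each library left out. The fit was also run on simulated counts with 200 changed genes and the same variation beyond counting (4.99%) for every gene. Far more genes were called in the data (53.5%), so that run does not test the scaling or the spread here.

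Members and lists were chosen with earlier results of these data known. Genes were named by rule: the members and BTN2A3P; the 4 largest called genes of each list; NLRC5, IRF1, FDPS, RHOB, HLA-B and HLA-C; the 4 largest neighbours within 500 kb; and the 5 genes nearest to the summed BTN3A profile. CTBP1, PSMB10, BTNL3, BTNL8, H3C6, HMGN4, ABT1, ZNF322, CIDEA, EPCAM, KRT20, CDX2 and VIL1 are named beside them and were chosen after their values were seen. Some genes that the rule names are not reported here.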

Additional observations from a re-analysis of the deposited data

How the results depend on the processing

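With 1 library left out, where a lone library is taken to vary as the other pair does, the log2 fold change ran from -1.05 to -0.59 for BTN3A2, from 0.31 to 0.55 for BTN2A1, from -0.39 to -0.22 for BTN2A2 and from -0.76 to 0.25 for BTN3A1, and the log2 ratio of the summed BTN3A genes from -0.87 to -0.28. That of the summed BTN2A genes ran from 0.10 to 0.15 and was 0.19 with library totals alone and 0.16 with upper quartile factors. BTN3A3 was at 0.12 on the log2(TPM + 1) scale. Over all genes, 2929 were higher and 2442 lower on that scale. Genes of the related lists called lower numbered 14; they were 7 with DESeq2, 6 on log2(TPM + 1) and 9 to 16 with 1 library left out (9 without empty vector replicate 1 or FOXD2 replicate 1). Neighbours called lower numbered 2; they were 1 with upper quartile factors and 0 with library totals alone, DESeq2 or log2(TPM + 1) (1 at an unadjusted p under 0.05 with DESeq2), and 0 to 1 with 1 library left out, 0 without empty vector replicate 2 or FOXD2 replicate 1. Of the 45 genes that the naming rule gives outside the members, 12 lost their call in at least 1 setting and none reversed. IRF1, SHOC1 and CACNB2 are among these 45 but were not called in the main edgeR fit, so they had no call to lose. Filters and tests that leave the family sums as they are gave no other value for those sums.

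The replicate numbers do not pair the samples by any label; deviations of same-numbered libraries had a correlation of -0.0989 over 14470 genes. With a replicate block, 3680 genes were higher and 3494 lower, and 1 neighbour was lower. Depth limits BTN1A1 (13 counts at most per group) and BTN3A3 most.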
